A study of Rattus norvegicus with 4 samples.

Results

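Annexin A5 and cavin-3 were the annexin and caveola genes measured in rat liver 12 h after bile duct ligation. The genes were chosen by name, as symbols that begin with Anxa or Cavin or that are Cav1, Cav2 or Cav3. Of the 958 named genes on the array, 2 met this rule, Anxa5 and Cavin3, each through 1 probe. The RefSeq gene table of assembly GRCr8 holds 19 genes with such symbols, namely 12 annexins, 4 cavins and 3 caveolins, and the other 17 were matched to no named probe. Both genes were also picked out because earlier results on the same arrays placed them among the highest genes. Their values are therefore given as a description, without a test.

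Annexins are cytosolic proteins that bind acidic phospholipids of membranes when calcium rises. Annexin A5 binds phosphatidylserine, hinders clotting on the membranes that it covers, and is widely used in labelled form to detect dying cells. Caveolae are small flask-shaped pits of the plasma membrane, built from caveolins and coated by cavins. Cavin-3, also named Prkcdbp or Srbc, belongs to that coat and binds protein kinase C delta. In liver, caveolae are best known from endothelial and mesenchymal cells.

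The rats were male Sprague-Dawley animals weighing 250 to 300 g. In the ligation group the common bile duct was tied, and in the sham group it was exposed but not tied. Total RNA of the right lateral lobe of 3 rats per group was mixed, so the spread between single animals was not measured. Poly(A) RNA of both pools was labelled with Cy3 or Cy5 and hybridised together on each of 4 two-colour cDNA arrays, with ligation in Cy5 on arrays 1 and 3 and in Cy3 on arrays 2 and 4. The labels do not say whether the arrays carried fresh pools or repeats of the same pair, so all errors measure only the spread between arrays, which may be technical. Because whole lobes were extracted, a change in the number of cells of a type and a change in RNA per cell cannot be told apart. The arrays give ratios and no levels, so the labelled tissue could not be checked by the presence of liver transcripts.

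Each probe had a deposited log ratio on every array. No source states the base, which was taken as 2. No source states the direction either, and the ratio was read as ligation over sham because ligation is channel 2 on every array, a likely but unsettled reading. Across all 1936 probes, arrays of the same dye orientation had Pearson r = 0.93 and 0.94, while pairs of opposite orientation had r = -0.45, -0.36, -0.35 and -0.28. Probes are not independent replicates, and these correlations are descriptive. If the ratio were Cy5 over Cy3 on every array, the sign of arrays 2 and 4 would have to be turned, and the values under that reading are given beside the others.

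As deposited, Anxa5 was at -0.06 (-0.0571), 0.88, 0.46 and 1.00 (0.997) on arrays 1 to 4. It was thus near 0 on array 1 and above 0 on the other 3. Cavin3 was at 0.80, 0.67, 0.87 and 0.88 on the same arrays. It lay above 0 on all 4 arrays, as did 12 of the 958 genes (1.25%), and its highest and lowest values were only 0.21 apart. The median gene had a range of 1.53 over the arrays, and 73 genes (7.62%) had a range no larger than that of Cavin3. The range of Anxa5 was 1.05.

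The columns themselves did not share a zero point, with medians of -1.26, 0.43, -0.96 and 0.26 for arrays 1 to 4. Each array was therefore centred on its median. Centred, Anxa5 was at 1.20, 0.45, 1.41 and 0.74. Centred, Cavin3 was at 2.06, 0.24, 1.83 and 0.62. Both probes lay above the array median on all 4 arrays, where 53 of the 958 genes (5.53%) did so and 68 (7.1%) lay below it on all 4. For both, the centred values were higher on the arrays with ligation in Cy5 than on those with ligation in Cy3. This rested on the centring. As deposited, the Cy5 and Cy3 pairs had means of 0.20 and 0.94 for Anxa5, the reverse order, and 0.83 and 0.77 for Cavin3.

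**Figure D1:**
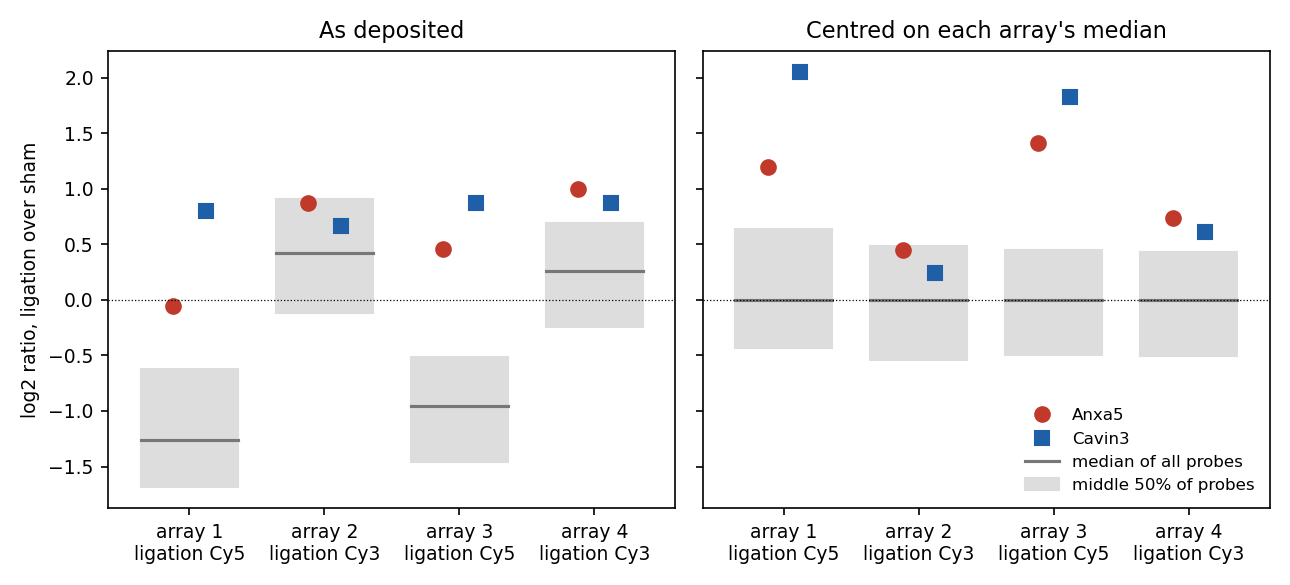
Log2 ratio of ligation over sham for the Anxa5 probe (circles) and the Cavin3 probe (squares) on each of the 4 arrays, as deposited (left) and centred on the array median (right). Grey boxes span the middle 50% of the 1936 probes and grey lines mark their median. Cavin3 is nearly level over the deposited columns, at 0.67 to 0.88, while the medians run from -1.26 to 0.43, so centring spreads it to between 0.24 and 2.06.

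Averaged over both orientations, which cancels a dye effect of equal size, Cavin3 was at 1.18 ± 0.08 on the log2 scale (SE of the fitted ligation term, 4 arrays), a ratio of 2.27. Single arrays gave ratios from 1.18 to 4.16. Anxa5 was at 0.95 ± 0.08, a ratio of 1.93, with single arrays from 1.37 to 2.67. After removal of the dye term, the arrays scattered about the fit with a residual SD of 0.22 for Cavin3 and 0.18 for Anxa5. Read as Cy5 over Cy3, the mean of Cavin3 would be 0.76 and that of Anxa5 0.36. Under that reading Anxa5 would be at 1.20, -0.45, 1.41 and -0.74 and Cavin3 at 2.06, -0.24, 1.83 and -0.62, so each would change sign between the dye orientations.

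Cavin3 was the third highest and Anxa5 the fourth highest of the 958 genes by mean. Their ranks as deposited, 3 and 4, are the same by construction, because centring shifts the mean of every gene equally. Read as Cy5 over Cy3, Cavin3 would rank 76 and Anxa5 329. Only Fabp5, a fatty acid-binding protein (1.63 ± 0.07), and Cyp2c22, a cytochrome P450 (1.46 ± 0.10), had higher means, and these were also the only genes above Anxa5 and above Cavin3 on each of the 4 arrays. Just below came Scd, the stearoyl-CoA desaturase, at 0.93 ± 0.08. The distance between Anxa5 and Scd was smaller than either standard error, so their order was not resolved. Next were Nfkb2, a subunit of NF-kappa-B, at 0.83 ± 0.08 and Cyp2u1 at 0.83 ± 0.07. Among all genes, 9 (0.939%) were at least 1.5-fold higher on average with the same sign on every array, and both Anxa5 and Cavin3 were among them. Since that contrast was used to choose them, nothing is read from this count.

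**Figure D2:**
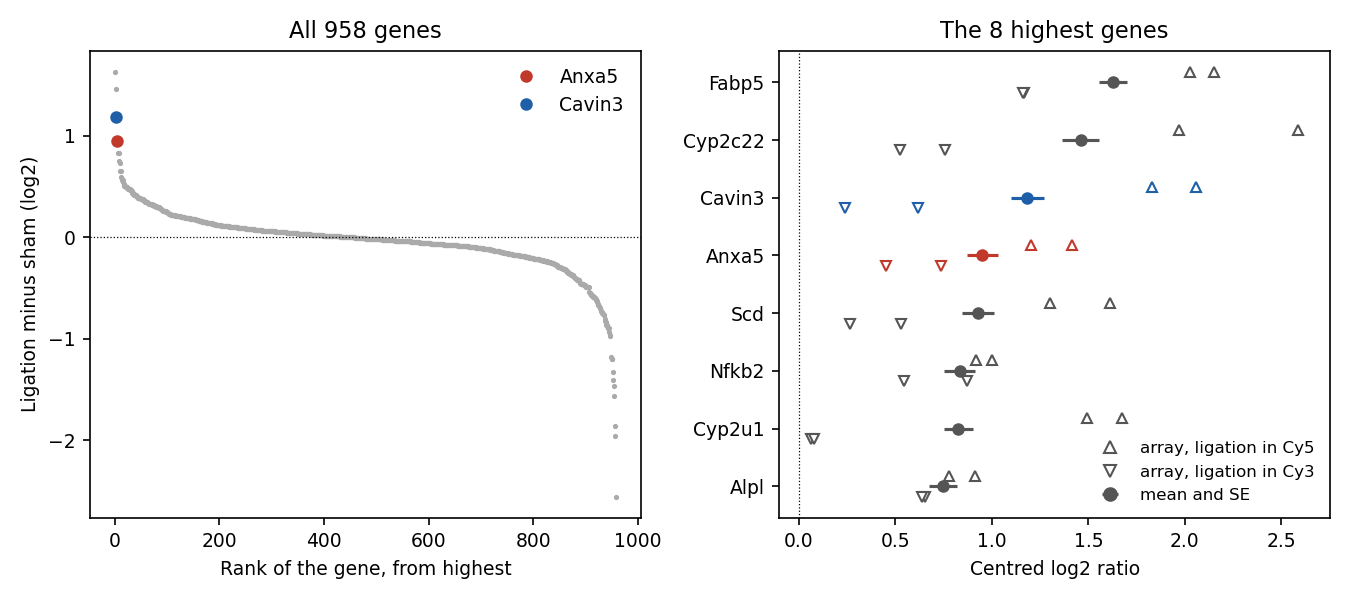
Left, mean difference of ligation minus sham (log2) of the 958 genes in falling order, with Anxa5 and Cavin3 coloured. Right, the 8 highest genes, with the mean and its SE (filled circles), arrays with ligation in Cy5 (upward triangles) and arrays with ligation in Cy3 (downward triangles). Cavin3 (1.18) and Anxa5 (0.95) follow Fabp5 (1.63) and Cyp2c22 (1.46), and the open triangles of Cavin3 lie farther apart by dye than those of Anxa5.

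Read as ligation over sham, the order of both genes changed with the dye orientation. On arrays 1 and 3, with ligation in Cy5, the mean of Cavin3 was 1.94 and that of Anxa5 1.31. On arrays 2 and 4, with ligation in Cy3, the mean of Cavin3 was 0.43 and that of Anxa5 0.59. Cavin3 was thus above Anxa5 on arrays 1 and 3 and below it on arrays 2 and 4. Read as Cy5 over Cy3, Cavin3 would be above Anxa5 on all 4 arrays. The dye term of the fit, the distance of the Cy5 pair from the overall mean, was 0.76 for Cavin3 and 0.36 for Anxa5. Those values ranked 76 and 329 among the 958 genes. By construction, the dye term equals the mean read as Cy5 over Cy3, so these are the same values and ranks.

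Ranked among the genes on single arrays, Cavin3 was at 3, 318, 3 and 64 on arrays 1 to 4, and Anxa5 at 37, 187, 5 and 18. Both genes stood lowest in the order on array 2. Taken on the orientation means, Cavin3 ranked 3 with ligation in Cy5 and 188 with ligation in Cy3, and Anxa5 ranked 12 and 67. The place of Cavin3 near the top of the list therefore came mainly from arrays 1 and 3, while that of Anxa5 was more even.

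**Figure D3:**
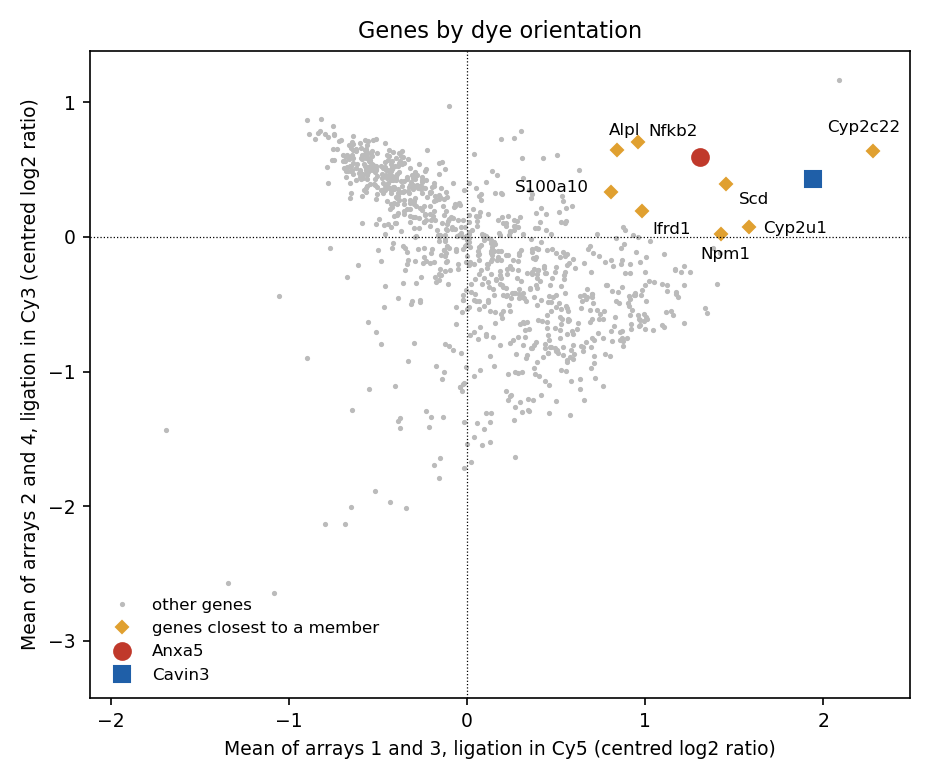
Each point is a gene, placed by its mean on the arrays with ligation in Cy5 (x axis) and in Cy3 (y axis), both centred log2 ratios. The bulk of genes runs from upper left to lower right. Anxa5 (1.31 and 0.59) and Cavin3 (1.94 and 0.43) lie at the upper right. Diamonds mark the genes closest to a member, chosen for that closeness. Of these, Npm1 (0.02) and Cyp2u1 (0.07) lie near 0 on the y axis.

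With 1 probe per gene, neither value had a second probe to set beside it. Of the 958 genes, 340 had more than 1 probe, and the median distance between the highest and the lowest probe of such a gene was 0.13. In 10 of them (2.94%) that distance exceeded the mean of Anxa5, and in 1.76% it exceeded the mean of Cavin3. The members were picked for high values, so these shares do not say how far a second probe of either would lie. Annexins share a repeated core sequence, and whether cDNA of other annexins bound to the Anxa5 probe was not tested.

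The genes with the closest profile over the 4 centred arrays were found by the root mean square difference from each member. For Anxa5 they were Scd (0.25), Nfkb2 (0.26), Alpl, the tissue-nonspecific alkaline phosphatase (0.35), the interferon-related regulator Ifrd1 (0.40) and S100a10 (0.41), all in log2 units. For Cavin3 they were Cyp2c22 (0.32), Scd (0.35), Cyp2u1 (0.38), the nucleolar protein Npm1 (0.47) and Anxa5 itself (0.49). Scd was on both lists, at 1.61, 0.26, 1.30 and 0.53 on arrays 1 to 4. These are descriptions over 4 arrays, and all genes share those arrays and their dye orientations.

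S100a10 is a small calcium-binding-family protein known as the partner of annexin A2, with which it forms a membrane complex. Its probes were averaged to 0.86, 0.17, 0.76 and 0.49 on arrays 1 to 4. Of its 2 probes, one was at 0.99, -0.15, 0.61 and 0.32 and the other at 0.72, 0.49, 0.92 and 0.66, with means of 0.44 and 0.70. The gene mean was 0.57 ± 0.08, and it passed the test across all features (limma, Benjamini-Hochberg adjusted p = 0.000114). S100a10 was met here as a gene close to Anxa5, itself chosen for high values. A high mean was therefore likely in advance, and nothing about annexins is read from this p-value. Without centring S100a10 was at 0.19 and not called (limma adjusted p = 0.0673).

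Partners and processes tied to annexins and caveolae were followed through 7 lists of genes, and cell types through 6 lists of markers. Together they held 84 measured genes, of which 13 were higher, 14 lower and 57 did not pass (limma adjusted p under 0.05), with a median of -0.02 (-0.019). Over all 958 genes, 112 (11.7%) were higher and 148 (15.4%) lower, with a median of -0.01 (-0.013). These shares are the background for every list count below, and no list was tested as a set. Read as ligation over sham, no listed gene reached the mean of Anxa5, and the highest was S100a10. Read as Cy5 over Cy3, 28 of the 84 would lie above Anxa5 and 6 above Cavin3, with Fah highest at 0.95 and S100a10 at 0.24. Of the 13 higher list genes none kept its call without centring (0 at unadjusted p under 0.05 as well), while all 14 lower ones did. This went with the whole array, where 11 of the 958 genes were higher and 791 lower without centring (83.7% called). Read as Cy5 over Cy3, 11 of the 27 called list genes were called in the opposite direction. Under that reading 78.0% of all genes were called. Centring on the 25% of probes with the largest dye term, added after seeing the data, ended the calls of Rack1 (0.40), Cd36 (-0.32), Egfr (-0.22), Capn3 (-0.22), Casp2 (-0.13), Actb (-0.17), Col1a1 (-0.16), Kdr (-0.26), Ccl5 (-0.26) and Cd53 (-0.19).

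**Figure D4:**
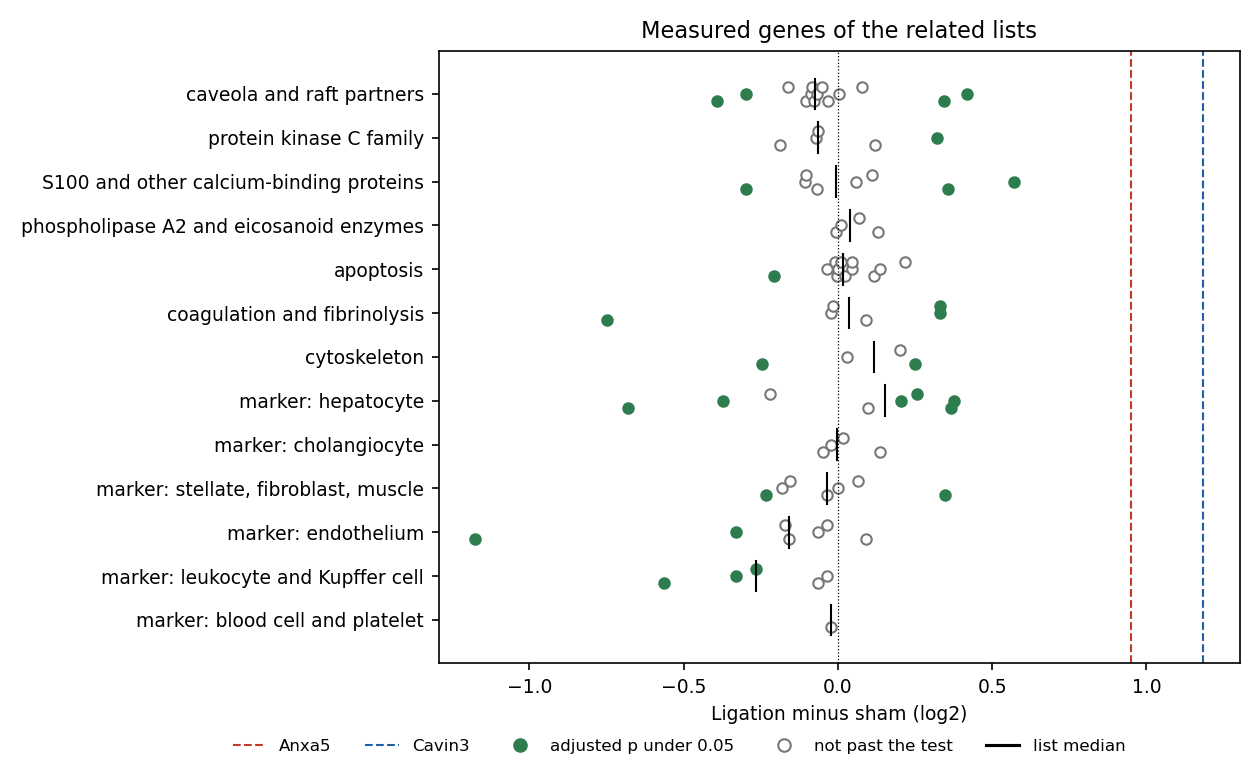
Difference of ligation minus sham (log2) of each measured gene in the 13 lists, filled where the limma adjusted p was under 0.05 and open otherwise, with the list median as a black bar. Dashed lines mark Anxa5 (0.95) and Cavin3 (1.18), to the right of every listed gene, the highest of which is S100a10 at 0.57. This holds for ligation over sham, whereas read as Cy5 over Cy3, 28 of the 84 genes would lie above Anxa5 and 6 above Cavin3.

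Among 14 measured proteins of caveolae and membrane rafts and their signalling partners, 2 were higher and 2 lower, with a median of -0.07. The lipoprotein receptor Scarb1, which takes up cholesterol from high-density lipoprotein, was at 0.42 ± 0.07, and the kinase Src, which phosphorylates caveolin-1, at 0.35 ± 0.08. The fatty acid carrier Cd36 was at -0.39 ± 0.10 and the epidermal growth factor receptor Egfr at -0.30 ± 0.08. Scarb1 and Egfr differed by dye orientation. On arrays 1 to 4, Scarb1 was at 0.82, 0.09, 0.86 and -0.10 and Egfr at 0.16, -0.57, -0.01 and -0.77. The call of Cd36 was lost without array 1 (-0.41), array 3 (-0.38) or array 4 (-0.21), that of Egfr without array 3 (-0.25) or array 4 (-0.25), and that of Src with each print block centred separately (0.24).

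Of 5 measured genes of the protein kinase C family and its scaffolds, 1 was higher. Prkcd, the kinase that cavin-3 binds, was at 0.12 ± 0.08 and did not pass (limma adjusted p = 0.296). The higher gene was Rack1, an anchor for activated protein kinase C, at 0.32 ± 0.10. Its call was lost without array 2 (0.22) or array 3 (0.19), with quantile normalization (0.33, adjusted p = 0.0624) and with print-block centring (0.24).

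Of 8 S100 and other calcium-binding proteins, 2 were higher and 1 lower, with a median near 0 (-0.0048). Besides S100a10, the calmodulin gene Calm2 was higher at 0.36 ± 0.08. The calcium-dependent protease Capn3 was lower at -0.30 ± 0.08, a call lost without array 2 (-0.25) or array 3 (-0.21). Both changed sign with the dye orientation. On arrays 1 to 4, Calm2 was at 1.19, -0.39, 0.91 and -0.28 and Capn3 at 0.46, -0.96, 0.09 and -0.78. The other S100 genes, S100a4 at 0.11 ± 0.08 and S100a9 at 0.06 ± 0.07, did not pass.

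Some annexins were early described as inhibitors of phospholipase A2. None of the 4 measured phospholipase A2 and eicosanoid genes passed (limma, 0 at unadjusted p under 0.05), and they lay between -0.01 (-0.0058) and 0.13. Of 12 apoptosis genes, 11 did not pass and 2 were at unadjusted p under 0.05. Casp2, a caspase, was at -0.21 ± 0.07 (adjusted p = 0.0498), and its call was lost without array 2 (-0.21), array 3 (-0.17) or array 4 (-0.20). It was also lost when arrays were centred on probes with 1 symbol (-0.17, adjusted p = 0.0936), with quantile normalization (-0.16, adjusted p = 0.0853) and with control positions kept (-0.21, adjusted p = 0.0506). On arrays 1 to 4, Casp2 was at 0.17, -0.50, 0.03 and -0.52, so its sign changed with the dye orientation.

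Of 6 coagulation and fibrinolysis genes, 2 were higher and 1 lower. The fibrinogen chain Fgg was at 0.33 ± 0.09 and the tissue plasminogen activator Plat at 0.33 ± 0.07. The thrombin receptor F2r was lower at -0.75 ± 0.10. The call of Fgg was lost without array 1 (0.26) or array 4 (0.24), and that of Plat without array 4 (0.29). On arrays 1 to 4, Fgg was at 1.01, -0.39, 0.72 and -0.01 and Plat at -0.03, 0.54, 0.12 and 0.70. Of 4 cytoskeletal genes, the membrane linker Ezr was at 0.25 ± 0.08 and the actin gene Actb at -0.25 ± 0.08. The call of Ezr was lost with print-block centring (0.17) and without array 1 (0.19), array 2 (0.27) or array 4 (0.22). That of Actb was lost with print-block centring (-0.21), with centring on probes with 1 symbol (-0.21), and without array 1 (-0.27), array 2 (-0.18) or array 3 (-0.22). Both changed sign with the dye orientation. On arrays 1 to 4, Ezr was at 1.00, -0.42, 0.74 and -0.32 and Actb at 0.37, -0.93, 0.26 and -0.68.

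Markers of the cell types of liver were measured in the same fit. Of 24 markers of cells other than hepatocytes, 1 was higher and 6 were lower, and the whole set ran from -1.18 to 0.35 with a median of -0.06. Over all 958 genes 11.7% were higher and 15.4% lower. The 4 cholangiocyte markers lay between -0.05 and 0.14 and none passed (limma, 0 at unadjusted p under 0.05). Of 7 stellate cell, fibroblast and smooth muscle markers, the protease inhibitor Timp1 was higher (0.35 ± 0.08) and the collagen gene Col1a1 lower (-0.23 ± 0.07). The call of Col1a1 was lost with centring on probes with 1 symbol (-0.20) and without array 2 (-0.24), array 3 (-0.19) or array 4 (-0.22). Of 7 endothelial markers 2 were lower, the endothelin-converting enzyme Ece1 at -1.18 ± 0.08 and the receptor Kdr at -0.33 ± 0.09, the latter not called without array 1 (-0.26) or array 2 (-0.20). Read as Cy5 over Cy3, Ece1 would be called higher (0.84) and Kdr would not be called (-0.15).

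Of 5 leukocyte and Kupffer cell markers 3 were lower, namely Tnf at -0.57 ± 0.08, Ccl5 at -0.33 ± 0.07 and Cd53 at -0.27 ± 0.08. Read as Cy5 over Cy3, all 3 would be called higher instead (Tnf 0.44, Ccl5 0.37 and Cd53 0.27). The call of Ccl5 was lost without array 2 (-0.28), and that of Cd53 without array 2 (-0.27), array 3 (-0.20) or array 4 (-0.26). The platelet marker Pf4 was at -0.02 ± 0.08. Of 8 hepatocyte markers 4 were higher and 2 lower, beside 11.7% higher and 15.4% lower over all 958 genes. The higher ones included the plasma proteins Apoa1 (0.38 ± 0.08), Tf (0.37 ± 0.08) and Ttr (0.26 ± 0.07), the last not called with print-block centring (0.15) or without array 1 (0.20), array 2 (0.26) or array 4 (0.25). These 3 lay above the array median only with ligation in Cy5. On arrays 1 to 4, Apoa1 was at 1.39, -0.45, 0.97 and -0.39 and Tf at 1.16, -0.27, 0.84 and -0.25. Ttr was at 1.05, -0.44, 0.83 and -0.42. The lower hepatocyte markers were Fah, which completes the degradation of tyrosine (-0.68 ± 0.09), and Cyp2e1 (-0.37 ± 0.07). Fah was at 0.49, -1.80, 0.05 and -1.47 on arrays 1 to 4. Read as Cy5 over Cy3, Fah would be called higher (0.95) and Cyp2e1 would not be called (0.11). The part of these markers in the values of Anxa5 and Cavin3 was not tested.

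The zero point, the direction and the base of the logarithm moved the members most. Over 16 alternative settings both genes stayed above 0. As deposited, Anxa5 was at 0.57 and Cavin3 at 0.80. Apart from the values as deposited, the Cy5 over Cy3 reading and natural logarithms, Anxa5 lay between 0.87 and 1.02 and Cavin3 between 0.96 and 1.28 over the other 13 settings. Quantile normalization gave the lowest value of Cavin3 among these, 0.96, and of Anxa5, 0.87. Leaving out any 1 array kept Anxa5 between 0.88 and 1.02 and Cavin3 between 1.09 and 1.28. Dropping the dye term, taking each probe separately, a robust prior and keeping control positions could not move either gene, so they are no check.

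**Figure D5:**
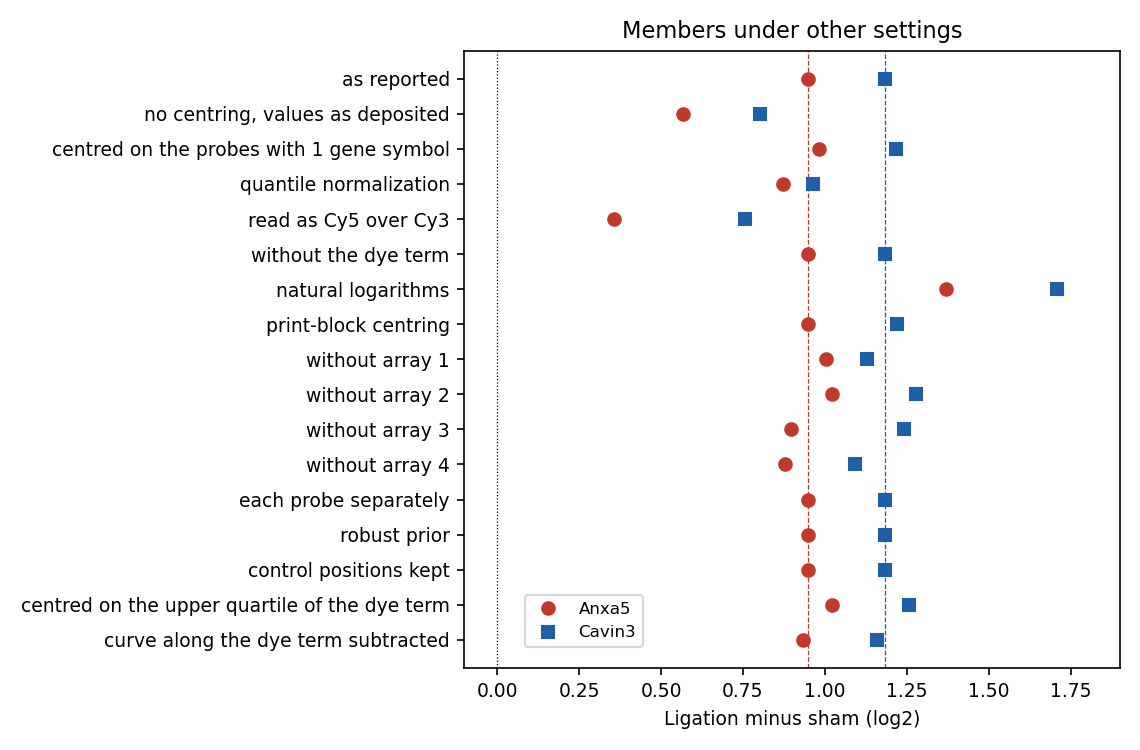
Difference of ligation minus sham (log2) of Anxa5 (circles) and Cavin3 (squares) as reported (dashed lines) and under each of 16 other settings. The lowest values come from the Cy5 over Cy3 reading (0.36 and 0.76) and the highest from natural logarithms (1.37 and 1.71).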

How the data were processed

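The deposited values are log2 ratios, 1 per probe and array, for 1936 probes on 4 arrays. Base 2 is an assumption. How the authors scanned, corrected and normalized them is not stated by any source used here. Signal over background is unknown, so precision rests on the number of arrays. Symbols came from the platform annotation, in which 1432 probes had 1 symbol, 19 several and 485 none. By gene number, 1429 of the 1432 matched the RefSeq table (GRCr8) under the same symbol. Coordinates are left out for want of a stated build.

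Print blocks were taken from the probe numbers, on the assumption of 16 blocks of equal size. The 288 spots at positions unnamed in all 16 blocks were treated as controls and omitted. Arrays were centred on their medians and probes sharing a symbol averaged, giving 958 genes and 216 other probes. limma 3.58.1 (R 4.3.3) estimated ligation and dye effects per feature with moderated variances and 2 residual degrees of freedom, and Benjamini-Hochberg adjustment ran over 1174 features, with calls at adjusted p under 0.05. The procedure was tested on simulated data. Every SE is the moderated SE of the ligation term, so it leaves out the difference between the dye orientations. Genes named were the members, the 5 genes of closest profile, the genes next to the members in order, and in each list up to the 3 largest called genes per direction. Prkcd, S100a4, S100a9 and Pf4 fall outside this rule and were named after their values were seen. The members and lists were chosen with earlier results of these data known. Alternatives covered centring, normalization, direction, dye term, log base, print block, probes, prior, control positions and each array left out. Centring on the 25% of probes with the largest dye term, and subtracting a curve along the dye term, were chosen after seeing the data.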

Additional observations from a re-analysis of the deposited data

How the results depend on the processing

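Both members stayed above 0 under the 16 alternatives run, several of which could not turn the sign. Of these, 13 moved Anxa5, and 12 moved Cavin3, by less than the residual SD between arrays. Those counts include settings that could not move either member, namely no dye term, each probe separately, the robust prior and control positions kept. As deposited, Anxa5 was at 0.57 and Cavin3 at 0.80, read as Cy5 over Cy3 they were at 0.36 and 0.76, and with natural logarithms at 1.37 and 1.71. Quantile normalization gave Cavin3 0.96. The causes were not tested.

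The number of genes called by limma rested on the same choices. As deposited, 11 genes were called higher and 791 lower, and of the list genes 0 higher (0 at unadjusted p under 0.05) and 69 lower. Read as Cy5 over Cy3, 433 were higher and 314 lower, and 35 and 34 of the list genes. Without the dye term limma called 0 higher and 0 lower over the array and 0 and 0 in the lists, where 17 and 35, and 1 and 2, had an unadjusted p under 0.05. Centred on the 25% of probes with the largest dye term, 88 genes were lower, and 5 list genes. Leaving out 1 array gave 74 (without array 4) to 117 genes higher, 103 to 151 lower, 8 (without array 4) to 13 list genes higher, and 7 (without array 3; 8 without array 2) to 12 lower.

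Signs of named genes turned under 2 settings. As deposited, Src was at -0.04 (-0.0365), Rack1 -0.06 (-0.0591), Calm2 -0.03 (-0.0253), Fgg -0.05 (-0.0493), Plat -0.05 (-0.0507), Ezr -0.13, Apoa1 -0.0039, Tf -0.01 (-0.0138), Ttr -0.13 and Timp1 -0.03 (-0.0344). Read as Cy5 over Cy3, Cd36 was at 0.08 (0.0849), Egfr 0.37, Capn3 0.57, Casp2 0.30, Plat -0.29, Actb 0.56, Fah 0.95, Cyp2e1 0.11, Timp1 -0.00049, Ece1 0.84, Tnf 0.44, Ccl5 0.37 and Cd53 0.27.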
